A study of Equus caballus with 26 samples.

Results

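The nuclear-encoded subunits of respiratory complexes III, IV and V were followed in whole blood of endurance horses before and after a 160 km ride. Members were all genes whose symbol, or gene name in the array's description column, starts with UQCR, CYC1, COX4 to COX8 or ATP5 and belongs to a subunit of these complexes. The rule found 35 genes among 24415 gene names on the array, namely 7 of complex III, 13 of complex IV and 15 of complex V. The subunits COX6C, COX7B, COX8A, UQCR10 and UQCRQ were not matched to a gene name and were not analysed here. Assembly factors and the subunits encoded by mitochondrial DNA are not members.

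Total RNA of blood drawn into PAXgene tubes was hybridised to equine Agilent arrays of 1 colour, with 26 arrays from 23 horses. The experimental set held 3 geldings, each sampled at rest before the start (T0) and again just after the finish (T1), so that each horse was its own control. The T0 and T1 arrays of each were on different slides and scanned on different days. A change within a horse can thus not be told apart from slide and scan day. The validation set held 7 other horses sampled at T0 (3 females and 4 geldings) and 13 further horses sampled at T1 (3 females and 10 geldings). All were Arabian or part-Arabian horses, aged 10 ± 2 years, entered for the same distance. The T1 horses of the validation set had finished the ride, whereas most horses that the study sampled for validation at T0 were later eliminated at a veterinary check. The validation comparison is thus between different animals. Every level below is a spot's signal on the log2 scale from which the 75th percentile of its array was taken away, and every change is T1 minus T0 on that log2 scale. A positive or negative level says how a probe stood to its own array, and levels of different genes were not set against each other.

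Complex III takes electrons from ubiquinol and passes them to cytochrome c. Complex IV passes them on to oxygen, and complex V, the ATP synthase, lets protons return through a rotating ring of c subunits and makes ATP. Complexes III and IV pump protons, and all 3 are built from a few subunits of mitochondrial DNA together with the nuclear subunits described here. Mature red cells of mammals have no mitochondria, so that in blood these transcripts come from leukocytes, platelets and immature red cells. Among leukocytes, neutrophils are known for few mitochondria and for living mainly on glycolysis.

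The blood label was checked against marker lists, and lymphocyte markers were mostly lower and several neutrophil and monocyte markers higher after the ride. These counts stand beside 24% of all gene names that were lower and 20.2% that were higher at T1 in the validation set. Of 12 T cell markers 11 were lower at T1 in the validation set, and their mean level ranged from -0.59 to 0.70 at T0 and from -1.64 to -0.40 at T1. Of 7 B cell markers 6 were lower, and of 6 NK cell markers 4 were lower and 1 was higher. Of 9 neutrophil markers on the array 6 were higher, with a mean level of 2.24 to 3.84 at T0 and 3.54 to 4.64 at T1, and of 6 monocyte markers 3 were higher. Of 6 erythroid markers tested 2 were higher, the globin genes HBA and HBB, while SLC4A1 and EPB42 were well above background on no array. None of 3 platelet markers tested passed. Under quantile normalization 5 neutrophil markers, 4 monocyte markers and 1 erythroid and 1 platelet marker were higher and 1 monocyte marker was lower, while the T, B and NK cell counts were the same. In the experimental set 8 T cell, 3 B cell and 4 NK cell markers were lower and 5 neutrophil, 3 monocyte and 2 erythroid markers were higher, beside 4.04% and 6.22% of all gene names. Under 3 other scalings, described below, 2 to 4 neutrophil, 3 monocyte and 0 erythroid markers were higher in that set. There 6 to 8 T cell, 3 or 4 B cell and 4 NK cell markers were lower, and under some scalings 1 monocyte marker. The shares of all gene names were 5.87% to 7.06% lower and 5.75% to 6.58% higher. In a bulk sample fewer cells of a type and less RNA per cell cannot be told apart, and the part of these cell types in each result below was not tested.

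The transcripts of these complexes were well measured in blood. Of the 35 members, 32 (91.4%) were well above background on all 26 arrays, against 13301 of all 24415 gene names (54.5%). The exceptions were isoforms of complex IV known from other tissues. COX7B2, known from testis, was well above background on no array and was not tested. COX4I2, the form of subunit 4 known from lung and low oxygen, was well above background on 18 of 26 arrays, namely 2 of 3 and 3 of 3 in the experimental set and 4 of 7 and 9 of 13 in the validation set at T0 and T1. COX6A2, the heart and muscle form of subunit 6a, was so on all arrays of the experimental set and on 6 of 7 and 8 of 13 in the validation set. The other 34 members were tested in both sets.

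Most members stood lower after the ride, and a few moved much further. Of 34 members tested in the validation set 9 fell at an adjusted p below 0.05 (limma, Benjamini-Hochberg over all gene names tested), beside 24% of all gene names, and 2 rose, beside 20.2%. With these levels the share that fell, 26.5%, was near the background. Under each of 3 other scalings, described below, 20 members fell beside a background of 23.3% to 23.9%. All 3 scale by quantiles, as far as the authors' values can be read, so that they are not separate checks. The median change was -0.19 over the members and -0.07 over all gene names, and 27 of 34 members (79.4%) were below 0 against 54.1% of gene names. In the experimental set 1 member fell, beside 4.04%, and 1 rose, beside 6.22%, with a median of -0.30 against 0.03. By the mean of the horses 27 of 34 members were below 0 in that set, against 48.5% of gene names. No member passed a test of the difference between the sets, the interaction term of a limma fit of all 26 arrays. At an adjusted p below 0.05 it was 0 of 34, beside 0% of gene names. At an unadjusted p below 0.05 it was 0 of 34, beside 99 of 17889 gene names, so that this test gave few calls on the whole array. By complex, 2 of 7 members of complex III fell and 1 rose in the validation set (median -0.17), 2 of 12 of complex IV fell and 1 rose (median -0.23), and 5 of 15 of complex V fell and none rose (median -0.19).

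**Figure D1:**
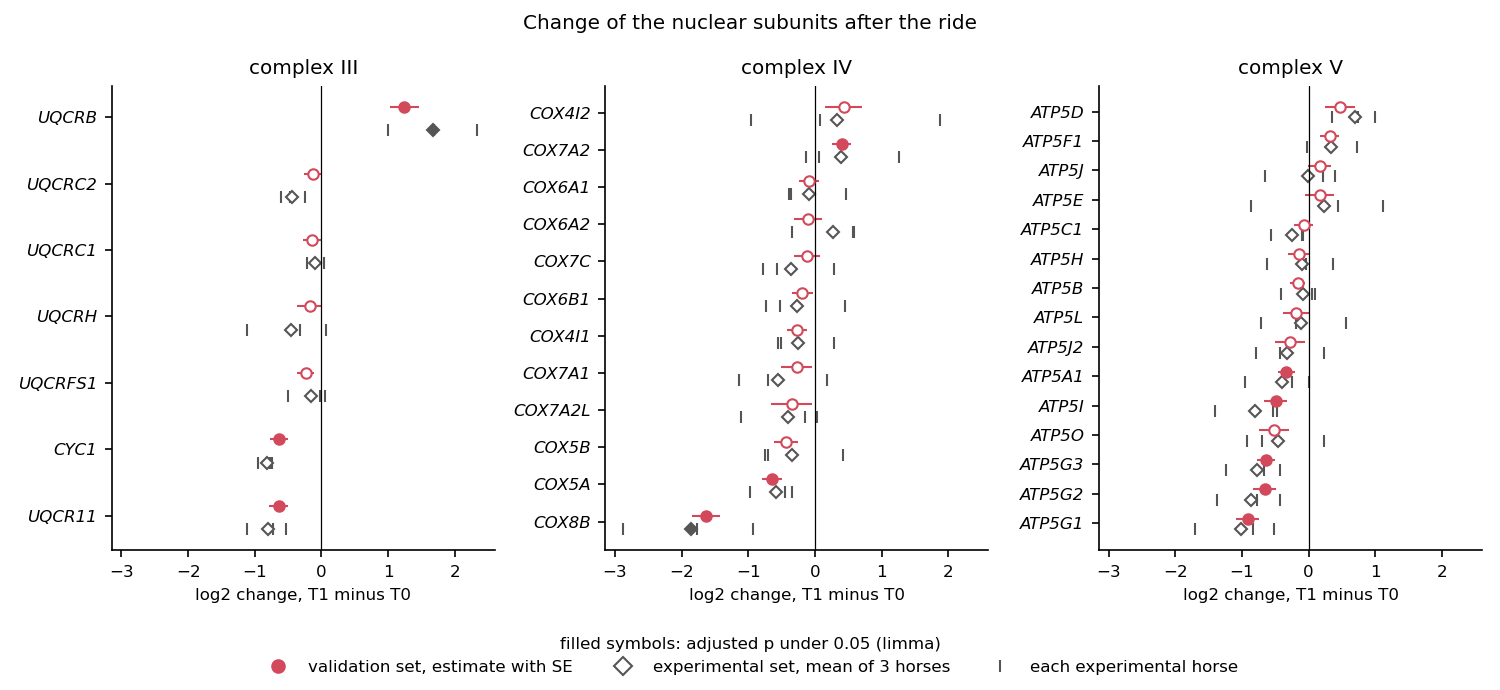
Change of each of the 34 members tested, T1 minus T0 on the log2 scale (x axis), with a panel for each complex and the genes on the y axis. Circles give the validation estimate with its SE, diamonds the mean of the 3 experimental horses and ticks each horse, and filled symbols passed an adjusted p of 0.05. UQCRB stands farthest to the right, at 1.24 in the validation set, and COX8B farthest to the left, at -1.63.

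In complex III, UQCRB rose while CYC1 and UQCR11 fell. UQCRB encodes the small subunit that binds ubiquinone. Its level in the experimental horses 2, 32 and 41 was 2.21, 0.45 and 1.83 at T0 and 3.21, 2.79 and 3.52 at T1. In the validation set it ran from 1.33 over a median of 1.90 to 2.49 at T0 and from 2.23 over 3.14 to 3.85 at T1. All 3 horses were higher at T1, and 12 of the 13 validation arrays at T1 lay above every T0 array. The change was 1.68 (SE 0.36, adjusted p = 0.0257 by limma, 3.20-fold) in the experimental set and 1.24 (SE 0.21, adjusted p = 0.000116, 2.37-fold, 95% interval 0.80 to 1.69 on the log2 scale) in the validation set. The 3 probes for UQCRB moved alike, by 1.24 to 1.29 in the validation set and by 1.58 to 1.68 in the experimental set. UQCRB was higher at T1 in each of 5 scan days that held both time points of the validation set. With 1 horse fewer the experimental change was 2.01 without horse 2 (adjusted p = 0.0658) and 1.34 without horse 32 (adjusted p = 0.0816).

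CYC1 encodes cytochrome c1, the haem protein that hands the electron to cytochrome c. Horses 2, 32 and 41 stood at 3.52, 3.54 and 3.22 before and at 2.75, 2.59 and 2.49 after the ride. The lowest, median and highest validation levels were 2.89, 3.26 and 3.68 at T0 and 2.33, 2.73 and 2.95 at T1. The ranges overlapped only at their edges, since 10 of 13 T1 arrays lay below every T0 array. CYC1 fell by 0.64 (SE 0.13, adjusted p = 0.000649, limma) in the validation set, and its experimental change of -0.82 (SE 0.31, adjusted p = 0.117) did not pass.

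UQCR11 encodes the smallest subunit of the complex. Its levels were 3.81, 3.20 and 3.42 at T0 and 2.68, 2.67 and 2.69 at T1 in horses 2, 32 and 41. Validation levels ran from 2.83 over 3.42 to 3.95 at T0 and from 2.40 over 2.78 to 3.24 at T1, with 6 of 7 T0 arrays above every T1 array. UQCR11 fell by 0.64 (SE 0.14, adjusted p = 0.00121, limma) in the validation set, beside -0.80 (SE 0.32, adjusted p = 0.135) in the experimental set. CYC1 and UQCR11 were lower at T1 within each of the 5 scan days and each had a single probe.

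Of the other 4 members of complex III none passed. The Rieske iron-sulfur protein UQCRFS1 had a change of -0.24 (SE 0.12, adjusted p = 0.123, limma) in the validation set, from a median level of 3.95 to 3.72. UQCRC2, a core protein and the member of this complex with the smallest change, had -0.13 (95% interval -0.40 to 0.13), with levels of 0.11 to 0.91 at T0 and 0.16 to 0.74 at T1. In the experimental horses it was -0.61, -0.47 and -0.25. The other core protein, UQCRC1, and the hinge protein UQCRH had changes of -0.14 and -0.17. Under the 3 other scalings UQCRFS1, UQCRC1 and UQCRH fell, each by 0.43 under quantile normalization. The opposite moves of UQCRB and CYC1 were thus found among genes of the same complex.

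In complex IV the largest change was that of COX8B, the heart and skeletal muscle form of subunit 8. The name rests on the array's description of a predicted horse transcript as like subunit 8B. COX8B was well above background on all 26 arrays. Its level in horses 2, 32 and 41 was -1.04, -2.95 and -2.16 at T0 and -3.92, -3.88 and -3.93 at T1, so that the horses differed before the ride and lay close together after it. In the validation set it ran from -2.88 over -1.77 to -1.35 at T0 and from -4.08 over -3.53 to -2.65 at T1. Of the 13 T1 arrays 12 lay below every T0 array. COX8B fell by 1.63 (SE 0.22, adjusted p = 1.1e-05, limma) in the validation set and by 1.86 (SE 0.41, adjusted p = 0.0280) in the experimental set. Its single probe is dim, and with the normexp background correction, which adds an offset to dim signals, the change shrank to -0.86 (adjusted p = 1.31e-05) and -0.99 (adjusted p = 0.0712). Without horse 2 the experimental change was -1.35 (adjusted p = 0.138).

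COX5A, a ubiquitous subunit on the matrix side of the complex, fell in the validation set. Horses 2, 32 and 41 stood at 4.44, 3.78 and 4.01 at T0 and at 3.47, 3.43 and 3.57 at T1. The validation levels ran from 3.57 over 4.25 to 4.65 at T0 and from 3.17 over 3.53 to 4.09 at T1, with 7 of 13 T1 arrays below every T0 array. The change was -0.64 (SE 0.15, adjusted p = 0.00186, limma), and its 5 probes gave -0.64 to -0.62. The experimental change was -0.59 (adjusted p = 0.254), lower in all 3 horses. Its partner COX5B had -0.44 (SE 0.18, adjusted p = 0.0594) in the validation set. COX5B was -0.75 and -0.70 in horses 2 and 41 and 0.42 in horse 32.

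**Figure D2:**
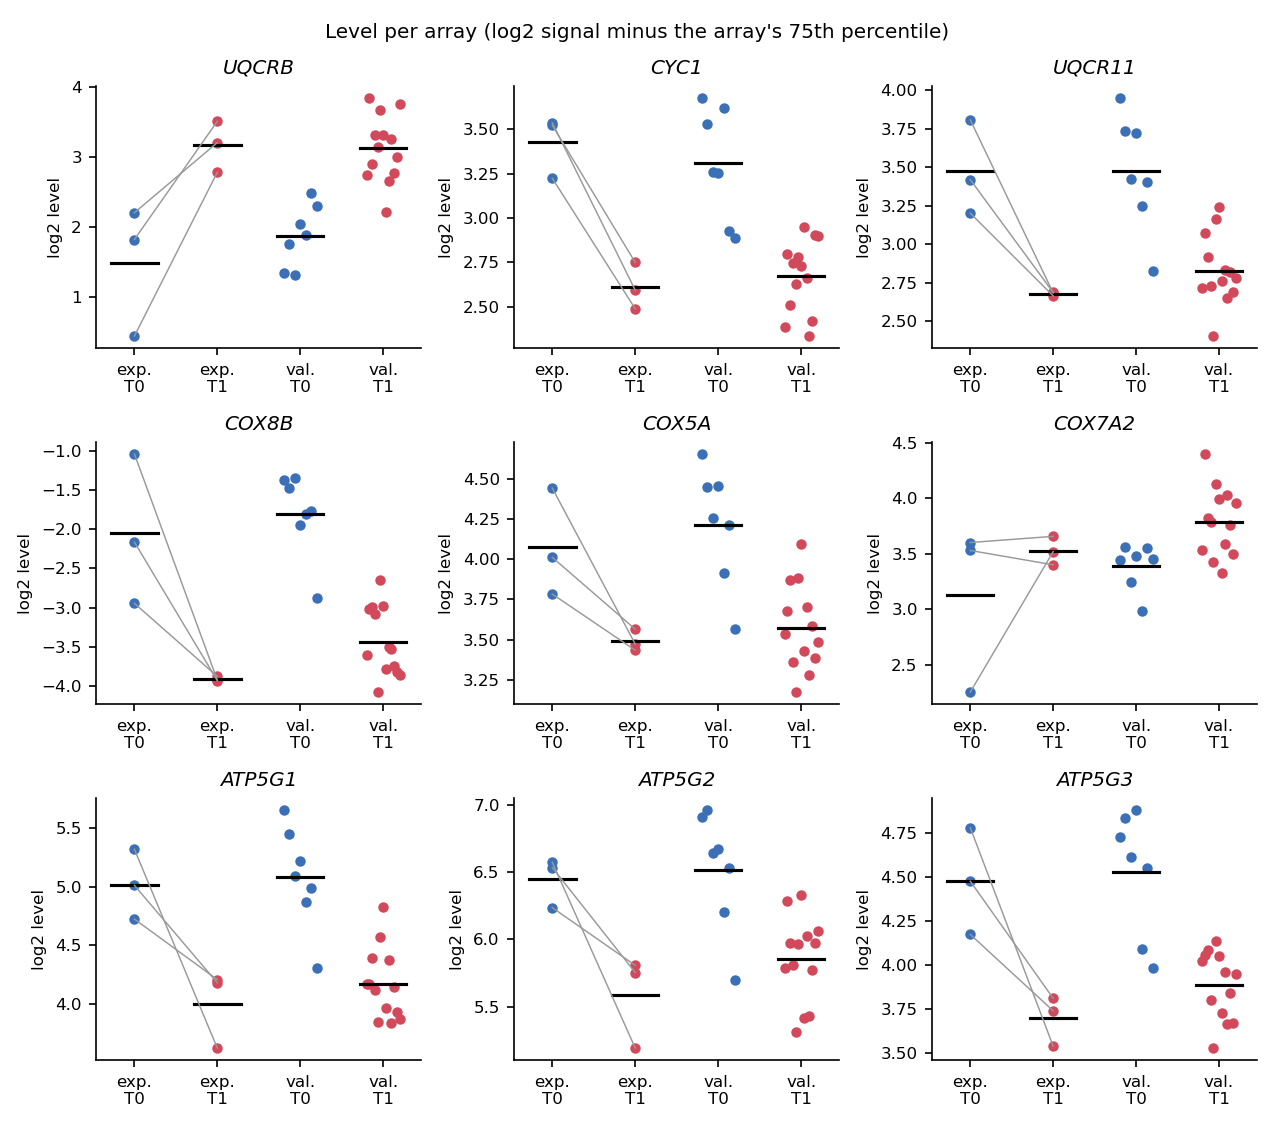
Levels of 9 members on each array (y axis, log2, after subtraction of the 75th percentile; the scale differs between panels) for the 4 groups on the x axis. Points are arrays, bars group means and grey lines join the 2 arrays of an experimental horse. UQCRB and COX7A2 sit higher at T1 in the validation set and the other 7 lower, and for each of the 9 some validation arrays of the 2 time points overlap.

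The isoforms of subunit 7a did not move together. COX7A2, the form found in most tissues, rose in the validation set by 0.40 (SE 0.14, adjusted p = 0.0282, limma), from 2.98 over 3.46 to 3.56 at T0 to 3.33 over 3.78 to 4.40 at T1, and 9 of 13 T1 arrays lay above every T0 array. Its 5 probes gave 0.39 to 0.51. The call was lost under quantile normalization (0.21, adjusted p = 0.110) and in a single fit of all 26 arrays (0.40, adjusted p = 0.0525). In the experimental horses 2, 32 and 41 it changed by -0.13, 1.26 and 0.06, so that horse 32 carried the mean of 0.40 (adjusted p = 0.507) and without that horse the change was -0.04. COX7A1, the heart and muscle form, had -0.28 (SE 0.23, adjusted p = 0.353) in the validation set. COX7A2L, which helps to join complexes III and IV into supercomplexes, had -0.35 (SE 0.31, adjusted p = 0.386). The difference between these isoforms was not tested.

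The common forms of the other isoform pairs did not pass with these levels, and their tissue forms were too dim for a firm value. COX4I1, the common form of subunit 4, had -0.27 (SE 0.15, adjusted p = 0.158, limma) with levels of 6.09 to 6.93 at T0 and 5.80 to 6.75 at T1. COX4I2 had 0.43 (SE 0.28, adjusted p = 0.235), with levels of -6.73 to -5.25 and -6.82 to -4.75. COX6A1, the common form of subunit 6a and the member of complex IV with the smallest change, had -0.09 (95% interval -0.40 to 0.21). COX6A2 had -0.11 (SE 0.20), COX6B1 -0.19 (SE 0.16) and COX7C -0.12 (SE 0.19). None of these 6 passed, but under the 3 other scalings COX4I1, COX6A1 and COX6B1 fell, by 0.47, 0.29 and 0.43 under quantile normalization (adjusted p = 0.00201, 0.0203 and 0.00396, limma).

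In complex V the 3 genes for the c ring of the ATP synthase fell together. ATP5G1, ATP5G2 and ATP5G3 encode the same mature subunit c with different import sequences, and the c ring turns as protons pass. ATP5G1 stood at 5.32, 4.72 and 5.01 at T0 and at 3.62, 4.21 and 4.18 at T1 in horses 2, 32 and 41. In the validation set it ran from 4.30 over 5.09 to 5.65 at T0 and from 3.84 over 4.15 to 4.83 at T1, with 9 of 13 T1 arrays below every T0 array. ATP5G1 fell by 0.91 (SE 0.17, adjusted p = 0.000246, limma, 1.88-fold), the largest fall within complex V. Its experimental change was -1.02 (SE 0.35, adjusted p = 0.0944).

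ATP5G2 was 6.57, 6.23 and 6.53 before and 5.19, 5.81 and 5.75 after the ride in the same horses. Its validation levels ran from 5.70 over 6.64 to 6.96 at T0 and from 5.31 over 5.97 to 6.33 at T1, and 5 of 7 T0 arrays lay above every T1 array. ATP5G2 fell by 0.66 (SE 0.17, adjusted p = 0.00412, limma), beside -0.86 (adjusted p = 0.126) in the experimental set. ATP5G3 went from 4.78, 4.17 and 4.47 to 3.54, 3.74 and 3.81 in the 3 horses. Its validation levels went from 3.98 over 4.61 to 4.88 to 3.53 over 3.95 to 4.14. It fell by 0.64 (SE 0.14, adjusted p = 0.000712), beside -0.78 (adjusted p = 0.151). All 3 genes were lower in 3 of 3 experimental horses, and a further gene name on the array for ATP5G2 and for ATP5G3 gave validation changes of -0.99 (adjusted p = 0.000118) and -0.69 (adjusted p = 0.000416). Probe sequences were not analysed here, so that signal shared between near copies was not tested.

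Of the remaining subunits of the membrane part, ATP5I, subunit e, fell by 0.49 (SE 0.17, adjusted p = 0.0251, limma) in the validation set, from 1.30 over 1.91 to 2.24 to 0.99 over 1.27 to 2.08. With scan day as a block the change was -0.55 and the call was lost (adjusted p = 0.0562). Its experimental levels were 2.55, 1.63 and 1.66 at T0 and 1.15, 1.16 and 1.11 at T1. ATP5L, subunit g, had -0.19 (SE 0.19, adjusted p = 0.443) and ATP5J2, subunit f, -0.28 (SE 0.22). ATP5F1, subunit b of the outer stalk, had 0.32 (SE 0.14, adjusted p = 0.0712). Its stalk partner ATP5O had -0.52 (SE 0.23, adjusted p = 0.0715), with levels of 3.25 over 4.28 to 4.90 at T0 and 2.93 over 3.55 to 4.39 at T1. The stalk subunits ATP5H and ATP5J had -0.15 and 0.17. Signs within the stalk were thus mixed and none of its 4 members passed with these levels. Under the 3 other scalings ATP5L, ATP5H and ATP5O fell. Their changes under quantile normalization were -0.47, -0.42 and -0.74 (adjusted p = 0.0143, 0.00754 and 0.00456, limma).

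The catalytic head showed 1 fall with these levels. ATP5A1, the alpha subunit, fell by 0.33 (SE 0.12, adjusted p = 0.0303, limma) in the validation set, from 6.42 over 6.87 to 6.98 at T0 to 6.04 over 6.46 to 6.74 at T1. In horses 2, 32 and 41 it changed by -0.96, 0.01 and -0.25. Its 5 probes gave -0.49 to -0.20. The call was lost with sex as a term (-0.30, adjusted p = 0.0546) and with scan day as a block (-0.23, adjusted p = 0.219). ATP5B, the beta subunit that holds the catalytic sites, had -0.16 (SE 0.12, adjusted p = 0.272). Under the 3 other scalings ATP5B fell, with -0.42 under quantile normalization (adjusted p = 0.00624, limma). ATP5C1, the gamma subunit of the turning shaft and the member of complex V with the smallest change, had -0.07 (95% interval -0.36 to 0.22). ATP5E, the epsilon subunit, had 0.17 (SE 0.22). ATP5D, the delta subunit, had 0.47 (SE 0.22, adjusted p = 0.0894) and was higher in 3 of 3 experimental horses, but its chosen probe was described from the mouse gene. A further gene name for ATP5D, described from a horse transcript, gave 0.47 in the validation set (adjusted p = 0.0596, limma). In the experimental set it gave 0.64 (adjusted p = 0.216).

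With these levels the 3 experimental horses differed in how many members were lower at T1. In horse 2, 30 of 34 members were lower at T1, with a median change of -0.72 against -0.17 over all gene names. In horse 41, 24 were lower, with a median of -0.25 against 0.18. In horse 32, 13 were lower and 21 higher, with a median of 0.07 against -0.00013. The T1 array of horse 2, the T0 array of horse 32 and the T1 array of validation horse 24 were scanned on the same day. Their member medians were -0.54, -0.46 and -0.48, relative to the validation T0 mean. A difference between the horses can thus not be told apart from scan day. It also depended on the scaling. Under quantile normalization 30, 26 and 26 members were lower in horses 2, 32 and 41, with medians of -0.81, -0.41 and -0.33. The members with the same sign in all 3 horses were 10 lower (CYC1, UQCR11, UQCRC2, COX5A, COX8B, ATP5C1, ATP5I and the 3 c-ring genes) and 2 higher (UQCRB and ATP5D). That is 29.4% and 5.88% of the members, beside 25.6% and 25.8% of all gene names tested. The place of ATP5C1 rests on its chosen probe, since its 3 probes gave mean changes of -0.25 to 0.17 over these horses.

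How many members fell depended on how the arrays were scaled. With quantile normalization, which gives every array the same distribution of signals, 20 of 34 members fell in the validation set in place of 9, beside 23.9% of gene names, and 2 rose, beside 21.9%. The member median went from -0.19 to -0.42. The same 20 members fell when the background was corrected by normexp before quantile normalization, beside 23.5%, and in the log2 values deposited by the authors, beside 23.3%. They held all 9 named above and 11 more, which were UQCRC1, UQCRFS1 and UQCRH of complex III, COX4I1, COX5B, COX6A1 and COX6B1 of complex IV, and ATP5B, ATP5H, ATP5L and ATP5O of complex V. The shift between the scalings was -0.18 at the median member and 0.06 at the median gene name. UQCRB rose under all 3, by 1.05 to 1.10, while COX7A2 did not pass under quantile normalization and COX4I2 did, with 0.53 (adjusted p = 0.0369, limma). The values of COX6A2, COX7C and ATP5E changed sign between these 2 scalings and passed under neither.

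**Figure D3:**
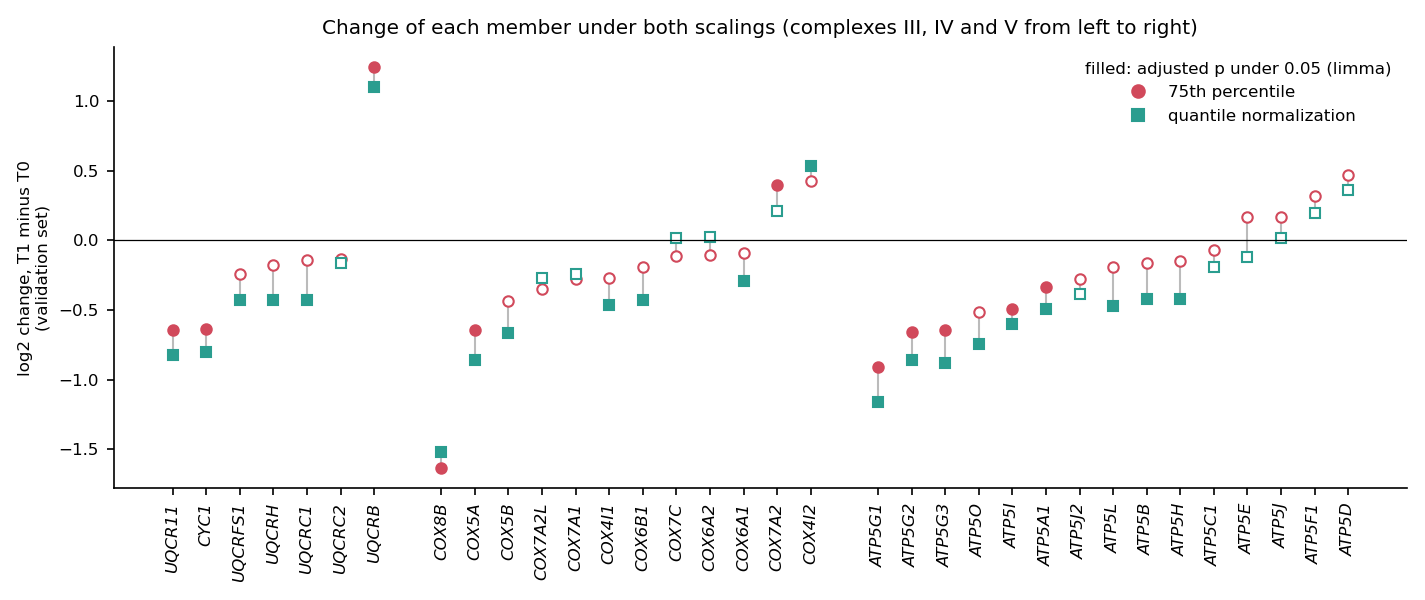
Validation-set change of each member (y axis, T1 minus T0, log2) under the 75th percentile (circles) and quantile normalization (squares), with the genes on the x axis grouped by complex and filled symbols for an adjusted p below 0.05. Filled negative symbols number 9 under the first and 20 under the second scaling, and the median of the members is -0.19 and -0.42.

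In the experimental set the same 3 settings gave 4, 8 and 7 members that fell, beside 5.87%, 7.06% and 6.71% of gene names for quantile normalization, normexp and the deposited values, while UQCRB alone rose in each, beside 5.75%, 6.58% and 6.08%. ATP5G1, ATP5G2 and ATP5G3 were among those that fell in all 3. Under quantile normalization the median member on each array lay between -0.63 and -0.20 on the 13 validation arrays at T1, relative to the validation T0 mean. It lay between -0.49 and 0.18 at T0, with horse 47 at -0.49 and the next lowest T0 array at -0.01. Under the 75th percentile the ranges were -0.55 to 0.15 at T1 and -0.39 to 0.24 at T0 and overlapped more. The arrays of horse 47 at T0 and of horse 34 at T1 stand apart, the first by its members and the second by 431 saturated spots. Without horse 47, 11 members fell, beside 26.1%, and 3 rose, beside 22%, with COX5B, ATP5O and ATP5D added. Horse 47 was singled out by its low members at T0, so larger falls without it follow from that choice and are no separate check. Without horse 34 the counts were 9 and 2.

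**Figure D4:**
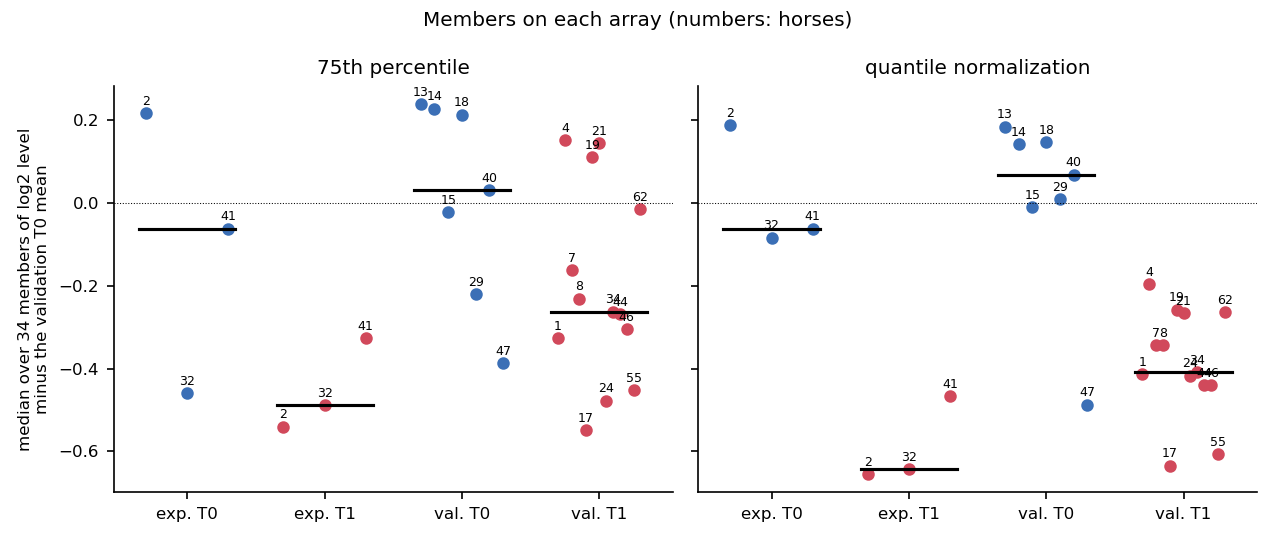
Median over the 34 tested members of the level on each array minus the validation T0 mean (y axis, log2), by group on the x axis, for both scalings. Each point is an array with its horse number and bars are group medians. Under quantile normalization all 13 validation T1 arrays lie between -0.63 and -0.20 and horse 47 is the only T0 array among them, at -0.49, while the groups overlap more under the 75th percentile.

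The arrays were scanned on 8 days, of which 5 held both time points of the validation set, with 1 or 2 T0 arrays each. Within these days the median change of the members was 0.23, -0.28, -0.55, -0.49 and 0.23, so that the small shift of the whole group did not hold on every day. With quantile normalization it was -0.29, -0.45, -0.61, -0.56 and -0.10. Within the 3 slides that held both time points the median was -0.36, -0.54 and, on the slide with horse 47 at T0, 0.45, where COX8B was 0.23 higher at T1 by 1 array against 1. On that slide UQCR11 (0.34), ATP5G1 (0.27), ATP5G2 (0.27), ATP5G3 (0.15) and COX5A (0.32) were also higher at T1, and CYC1 was lower (-0.11). With quantile normalization the medians of the 3 slides were -0.47, -0.59 and, on the slide with horse 47, still above 0 at 0.26. With slide as a random block 9 members fell, beside 24.6%, and 2 rose, beside 20.9%. UQCRB and COX7A2 were higher and COX8B, CYC1, UQCR11, ATP5G1 and ATP5G3 lower on 5 of 5 days, though the smallest falls were near 0 (-0.0065 for UQCR11, -0.042 for ATP5G1 and -0.039 for ATP5G3), ATP5G2 and COX5A lower on 4, and ATP5A1 and ATP5I lower on 3. With scan day as a block in the fit 7 members fell, without ATP5A1 and ATP5I, beside 22.1% of gene names, and 3 rose, beside 19.3%, COX4I2 being the third (0.54, adjusted p = 0.0360, limma). With sex as a term ATP5A1 no longer passed and 8 fell, beside 21.7%. On the scan days that held both time points of the experimental set, always from different horses, the member medians were 0.05 and -0.47. With quantile normalization they were -0.42 and -0.58.

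The partners of these subunits are given for comparison, and their lists were chosen with results of these data known. The 6 subunits of mitochondrial DNA (CYTB, COX1, COX2, COX3, ATP6 and ATP8) had validation changes of -0.28 to -0.15, with 0 of 6 past the threshold by limma (0 of 6 in the experimental set) and a median of -0.25. Under quantile normalization 2 of the 6 fell. Of 29 assembly factors tested 13 fell and 1 rose in the validation set, beside 24% and 20.2% of all gene names, with a median of -0.37. None passed in the experimental set (median -0.47), beside 4.04% of all gene names lower and 6.22% higher. In that set 4 fell with normexp and in the deposited values, beside 7.06% and 6.71%. Those that fell include LYRM7 and UQCC3 for complex III, SCO2, COA6 and SURF1 for complex IV and ATPAF2, a chaperone of the catalytic head, for complex V. LYRM7, which guides the Rieske protein into place, changed by -1.12 (SE 0.25, adjusted p = 0.00111). TMEM70, which assists the building of the c ring, rose by 0.90 (SE 0.18, adjusted p = 0.000404), opposite in sign to the 3 c-ring genes.

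Around complex V, VDAC3, a channel of the outer membrane, rose by 1.71 (SE 0.23, adjusted p = 1.41e-05, limma) in the validation set and by 1.98 (adjusted p = 0.0114) in the experimental set. Its relatives VDAC1 and VDAC2 had -0.08 and -0.04. The adenine nucleotide exchanger SLC25A4 fell by 0.58 and ATPIF1, the inhibitor of ATP hydrolysis by complex V, fell by 0.54, while cytochrome c (CYCS) had -0.25 and did not pass. In all, 2 of these 8 exchange genes fell and 1 rose. This count and those of the next 2 lists stand beside 24% of all gene names lower and 20.2% higher. Of 14 regulators of mitochondrial biogenesis 4 fell (PPARGC1B, PPRC1, TFB1M and POLG) and 1 rose (GABPA), with a median of -0.01. Of 9 genes of import and mitochondrial mass 3 fell (TOMM20, TOMM40 and TIMM44) and citrate synthase (CS) had -0.26 (adjusted p = 0.152). No gene of the regulator and import lists passed in the experimental set, beside 4.04% of all gene names lower and 6.22% higher. Under the 3 other scalings the validation counts were 14 assembly factors lower and 1 higher, and 3 or 4 exchange genes lower and 1 higher. For the other lists they were 3 regulators lower and 1 or 2 higher, and 3 import genes lower. The shares of all gene names were 23.3% to 23.9% lower and 20.7% to 21.9% higher.

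**Figure D5:**
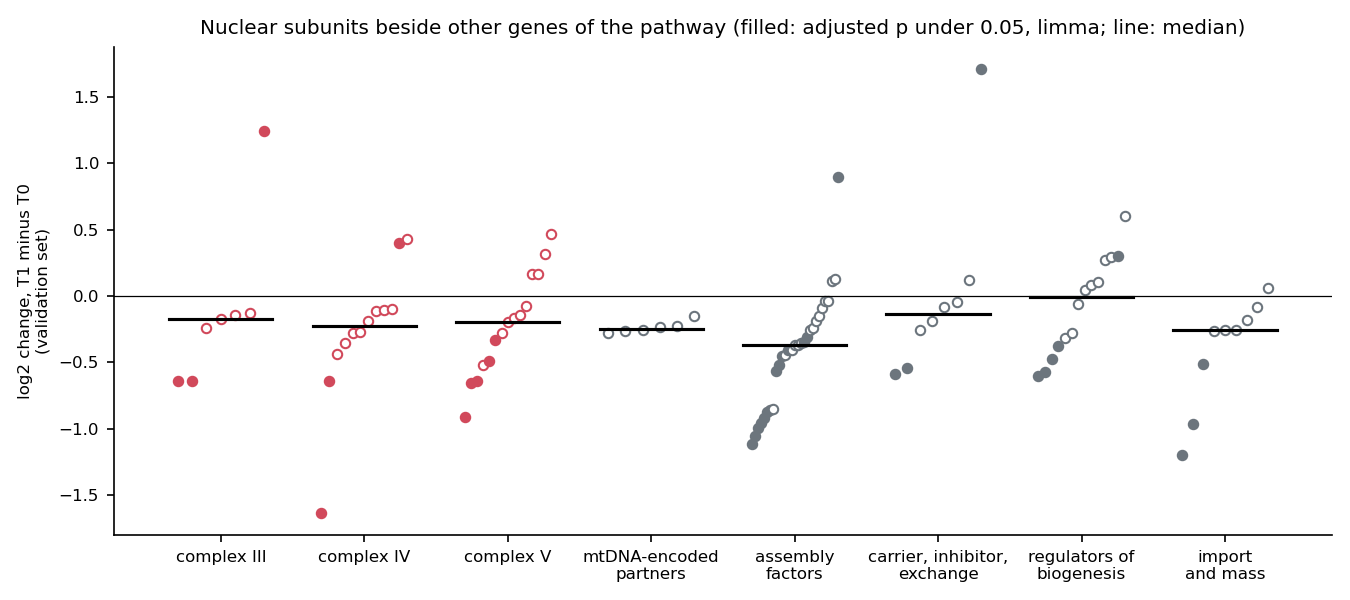
Validation-set change (y axis, T1 minus T0, log2) of each tested gene of the 3 complexes and of the partner lists on the x axis, sorted within a list, filled points for an adjusted p below 0.05 and bars for list medians. The medians of the complexes (-0.17, -0.23 and -0.19) and of the mtDNA-encoded partners (-0.25) and that of the assembly factors (-0.37) were not tested against each other, and their order changes with the scaling.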

How the data were processed

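Per the file headers, each array was read by Agilent Feature Extraction 10.7.3.1, and the deposited intensity of a spot (gProcessedSignal) had its local background subtracted and spatial trends removed, with no normalization between arrays. The authors also deposited processed log2 values, for which the submitters' processing notes name limma. Their quantiles are nearly equal between arrays, so they were read as quantile normalized and used as an alternative, and the exact method is not given in the sources used here.

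Control spots were dropped, as were 386 outlier spots, and replicate spots of a probe were averaged. Saturated spots (431, all from horse 34 at T1) were kept. Per array, 60.4% to 75.4% of spots stood well above background, and precision is limited by the number of arrays. Levels were log2 signals after subtraction of each array's 75th percentile (8.74 to 9.76). The probe with the highest mean was taken for each gene name, and the brightest gene name for each of the 9 members with several. A gene name was tested where at least 3 experimental arrays, 7 validation arrays or, for the set by time term, 7 of all arrays held it well above background. Fits used limma 3.58.1 with statmod 1.5.0 in R 4.3.3. The experimental fit had the horse as a block, since same-numbered arrays come from the same animal by their labels. The deviations of a horse's arrays from the group means correlated by -0.01, 0.21 and 0.19. The values thus showed little likeness within a horse, and the pairing rests on the labels. The validation fit had no block, and the fit of the set by time term had the horse as a random block (consensus correlation -0.06). Two-sided p-values were adjusted over all gene names tested. Python 3.11.15 with numpy 2.4.6, pandas 2.3.3 and matplotlib 3.10.9 made the summaries. The fits were run on simulated data with known changes. Those changes were larger than those of most members and came without horse or batch effects, so recovery of smaller changes was not tested.

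Sets and time points came from the labels. Every member was named, and full values were given in each complex for the 4 members with the largest validation change and the one with the smallest, for members past the threshold in the experimental set and for isoforms of a subunit. Values of COX7A2, ATP5I and ATP5A1 were added after they were seen to pass. The members and lists were chosen with earlier results of these data known. Alternatives covered background correction, scaling, probe choice, the filter on dim probes, blocks for horse, scan day and slide, sex, and left-out arrays. Promoter motifs were not analysed here, since no promoter sequences were at hand.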

Additional observations from a re-analysis of the deposited data

Results flagged for a closer look

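In the validation set at T0, 2 of 34 members had an array that stood apart from the other 6 by Dixon's ratio of gap to range, and chance alone gives about 1 in 20. COX8B stood at -2.88 in horse 47 against a median of -1.62 in the others, with a ratio of 0.614. Without horse 47 the validation change of COX8B was -1.81 in place of -1.63. A larger fall follows from leaving out the lowest T0 array and is no separate check. ATP5E stood at 5.80 in horse 40 against a median of 5.15, with a ratio of 0.586.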

How the results depend on the processing

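Of the recomputed counts and medians 66 stayed close to their first value and 16 moved. The number of members lower at T1 in the validation set was 20 under quantile normalization, under normexp with quantile normalization and in the deposited log2 values, in place of 9, and the number higher was 1 in a single fit of all 26 arrays, in place of 2. In the experimental set, in place of 1 lower, the same 3 scalings gave 4, 8 and 7, the single fit of all arrays gave 6 (beside 6.73% of all gene names), and no filter on dim probes and scan day in place of the horse (chosen after seeing the data) gave 0, where 0.0246% and 0% of all gene names were lower. In place of 1 higher, no filter, no replicate block and scan day gave 0, the first and last beside 0.164% and 0%. Leaving out each experimental horse gave 0 to 1 lower and 0 to 1 higher, with 0 of both beside 0.265% and 0.795% without horse 2. The pairing by horse thus changed 1 call: without the block UQCRB had an adjusted p of 0.0566 by limma, and COX8B still passed. Some values changed sign, and none of those listed here passed in either direction. The list covers only the members first chosen for full values, and others, such as COX7C and ATP5E above, changed sign too. In the experimental set the listed ones were ATP5C1 (0.037) and ATP5L (0.15) with scan day. Leaving out each experimental horse moved ATP5L between -0.45 and 0.19, COX4I2 between -0.44 and 0.97, COX6A1 between -0.37 and 0.053, COX7A2 between -0.037 and 0.66 and UQCRFS1 between -0.26 and 0.016. In the validation set COX6A2 changed sign with quantile normalization (0.025), the deposited values (0.0028) and scan day (0.0015). In the experimental set COX8B lost its call with normexp (adjusted p = 0.0712), the deposited values (0.0724), no filter (0.148), scan day (0.0912) and without horse 2 (0.138), and UQCRB with no filter (0.139), scan day (0.0646) and without horse 2 or 32 (0.0658 and 0.0816). The causes were not tested. No member passed the test of a difference between the sets under any of the alternatives run for that fit. Dim probes limit what can be said of COX4I2, COX6A2 and COX7B2.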
